A study of Mus musculus with 9 samples.

Results

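Cells of 2 Malat1 knockout lines of the same parent cell line were compared with each other, to describe how far lines with the same genotype label lie apart. They did not carry equal levels of the targeted RNA, of which KO2 kept more than KO1 (values below). The 6 libraries, of 9 in the series, were chosen by their titles, 3 of the line called KO1 and 3 of the line called KO2. All cells were 4T1-TGL, a breast cancer cell line of BALB/c origin whose parent, 4T1, is widely used as a mouse model of metastatic breast cancer. KO1 and KO2 carried the genotype Malat1 KO, and the remaining 3 libraries, called Ctrl, came from cells with the genotype WT and serve here only as the reference level. All groups were grown in DMEM/F12 medium, and no treatment, time point or animal is given. The design text numbers the lines 3 (KO1) and 43 (KO2). The labels do not say how the knockout was made or whether each line was 1 clone. Nor do they state that replicates were separate cultures, so every p-value rests on a spread between libraries that may be only technical. The design text gives the sixth and the ninth sample names that differ from their titles, and the titles were used.

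Malat1 is an abundant long noncoding RNA that stays in the nucleus and gathers at nuclear speckles. NF-kB is a family of transcription factors held back by inhibitor proteins. Once released, it drives genes for chemokines, cytokines and acute-phase proteins, and several of its own inhibitors are among its targets. Interferons act through JAK kinases and STAT proteins on genes for antiviral proteins and antigen presentation. Tumour cells use both pathways to signal to immune cells, and cell lines can differ widely in how much of each they run at rest.

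The totals of estimated counts per library were between 30655924 and 35406395. KO2 libraries listed fewer genes (15102, 15678 and 15100) than KO1 (16295 to 16488) or Ctrl (16104 to 16254). KO2 replicate 2 stood apart within its line. It listed 876 genes that the other KO2 libraries did not, against 380 and 386 for those, and these genes held 0.00861% of its total. The stromal gene Col3a1 is not among these but was also highest there, at 0.0328, 2.24 and 0.0680 CPM in the KO2 libraries. CPM are counts scaled to library size with TMM factors. Within groups, every pair of libraries differed beyond sampling noise (chi-square per gene 8.27 to 60.74), so all 9 were kept as separate samples. The highest of these values was between KO1 replicates 1 and 2. Of markers that define epithelial tumour cells, Krt8 and Krt18 were high in all 9 libraries (635 and 1055 CPM for Krt8 in KO1 and KO2), whereas Epcam and Cdh1 stayed under 1 CPM throughout. A further such marker, Krt19, was also at a low level and was not called between the lines. The general blood cell marker Ptprc was at 0.0929 CPM or less. The summed macrophage and neutrophil markers were not near 0, at 49.7 to 67.2 CPM in KO1 and 43.1 to 47.4 CPM in KO2.

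The targeted gene was measured first. Malat1 (chromosome 19, 5795690 to 5802672, GRCm38) was at 3.88, 3.69 and 2.63 CPM in KO1, 119, 160.1 and 98.1 CPM in KO2 and 510.3, 402 and 474 CPM in Ctrl. All 3 KO2 libraries lay above all KO1 libraries and below all Ctrl libraries. The mean was 3.40 ± 0.669 CPM in KO1 and 126 ± 31.5 CPM in KO2 (SD, n = 3), a log2 difference of 5.21 ± 0.22 between the lines (SE; edgeR adjusted p = 3.76e-08). The line with more Malat1 left was thus KO2, and the values are totals over the gene that do not show which part of it was read. Neat1, the neighbouring long noncoding RNA that builds paraspeckles, was at 1061, 1051 and 941 CPM in KO1 and 1906, 2197 and 1597 CPM in KO2. Its log2 difference was 0.90 (edgeR adjusted p = 9.23e-05), and its KO1 libraries lay near those of Ctrl (901 CPM). Over all tested genes 25.5% were higher in KO2 and 29.5% lower. Of 16 paraspeckle protein genes, 10 were higher and 2 lower, with a median log2 difference of 0.23. Examples are Rbm14 (0.75) and, lower, Pspc1 (-0.86) and Hnrnpa1 (-0.36), all RNA-binding proteins of these bodies. With total count scaling 5 of the 16 were higher and 3 lower.

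The distance between the lines exceeded that within either. The median absolute log2 difference over tested genes was 0.145 to 0.236 between KO1 libraries, 0.0921 to 0.121 between KO2 libraries, and 0.331 to 0.433 between a KO1 and a KO2 library. The first principal component, with 66.3% of the variance, placed the KO2 libraries at 88.5 to 92.6 and the other 6 between -48.2 and -41.1. The second, with 21.2%, placed KO1 opposite Ctrl and left KO2 near 0. EdgeR called 7529 of 13682 tested genes at an adjusted p under 0.05, which is 55.0%, with 3495 higher in KO2 (25.5%) and 4034 lower (29.5%). The median log2 difference over all tested genes was -0.021. With total count scaling this median was -0.127, and of the calls 2514 were higher and 5023 lower, so that 33.4% rather than 46.4% of them were higher. On log2(FPKM + 0.1) with limma that share was 33.2%. Every count of higher and lower genes given here is therefore relative to TMM scaling, and small differences are read with that shift in mind.

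The large differences ran mainly 1 way. Of the 7529 calls, 3695 were under 1.5-fold, and the median absolute log2 difference of called genes was 0.594. At 2-fold or more, 2172 genes were called (15.9% of those tested), with 514 higher (3.76%) and 1658 lower in KO2 (12.1%). At 4-fold or more, 141 were higher and 945 lower, and at 16-fold or more 52 were higher and 446 lower. Without KO2 replicate 2, 6741 genes were called in all. Without KO1 replicate 2 the total was 7964, and 628 genes were higher in KO2 at 2-fold or more.

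The Ctrl level tells which line stood away from its reference. Against Ctrl, 54.1% of tested genes were called for KO2 and 30.5% for KO1, and both comparisons share the Ctrl libraries. Of the 2172 genes, Ctrl lay within 1.5-fold of KO1 and not of KO2 for 1003 (46.2%), and within 1.5-fold of KO2 and not of KO1 for 311 (14.3%). For another 527 (24.3%) the Ctrl mean lay between the lines, for 238 (11%) above both and for 69 (3.2%) below both. Genes lower in KO2 with Ctrl between the lines (456) outnumbered those higher in KO2 (71). A line can therefore differ from the other by its own departure or by departures of both, and the Ctrl level is given below for the genes described by library. In bulk RNA, fewer cells that express a gene and less RNA per cell cannot be told apart.

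**Figure D1:**
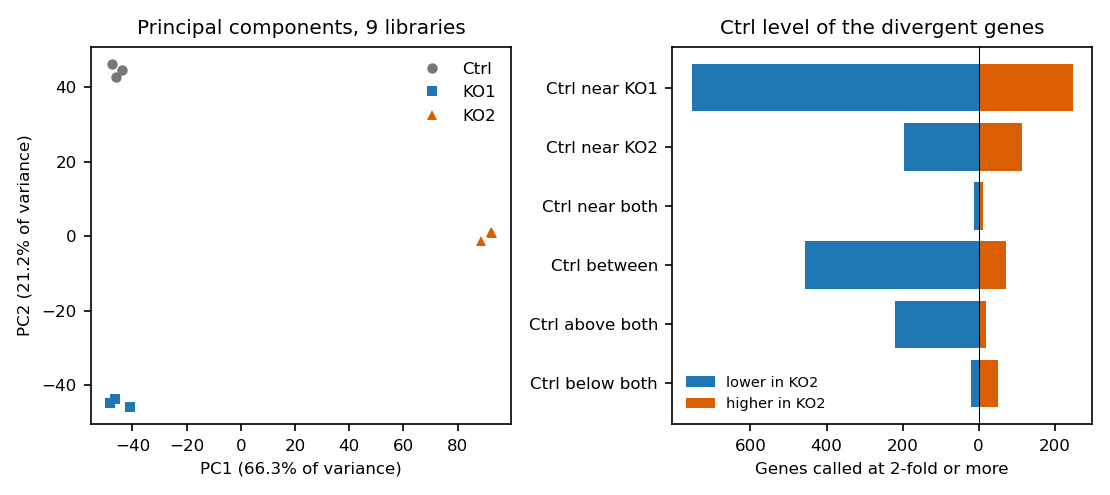
Left, principal components of log2 CPM, with 1 point per library (grey circles Ctrl, blue squares KO1, orange triangles KO2) and the share of variance on each axis. Right, number of genes called at 2-fold or more between the lines by where the Ctrl mean lay, with genes lower in KO2 drawn to the left and higher in KO2 to the right. KO2 stands alone on the first component, and the longest bars are those of genes at the Ctrl level in KO1.

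Some genes were expressed in 1 line and all but silent in the other. At 5 CPM or more in every library of 1 line and under 0.1 CPM in every library of the other, 41 genes (32 with a symbol) were on in KO1 only and 7 (6 with a symbol) on in KO2 only. Of the 41, 22 were also on in every Ctrl library and none was off in Ctrl. Of the 7, 3 were on in Ctrl and 2 were off. The genes that were silent in a line had therefore mostly been expressed in Ctrl, at least at a low level.

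Map2, a microtubule-associated protein best known from neurons (chromosome 1, 66175202 to 66442583), had 0 counts in all KO2 libraries. It stood at 100.4, 103 and 98.2 CPM in KO1 and 10.9, 9.11 and 10.5 CPM in Ctrl. KO2 was at least 1059-fold lower than KO1, and the 2 knockout lines lay on opposite sides of Ctrl. The fold is a lower bound set by 3 counts over the group plus what the listing minimum of the tables could hide. Sfrp1, a secreted antagonist of Wnt proteins (chromosome 8, 23411383 to 23449632), had the same pattern, with 34.9, 47.0 and 40.3 CPM in KO1, 14.3, 10.7 and 12.9 CPM in Ctrl and 0 in KO2, at least 515-fold. Pdgfc, a ligand of PDGF receptors (chromosome 3, 81036416 to 81214040), was at 20.6, 22.9 and 22.8 CPM in KO1, 2.43, 2.19 and 2.46 CPM in Ctrl and 0 in KO2, at least 316-fold. Both genes encode secreted signalling proteins, and neither was detected in any KO2 library.

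Steap4, a metalloreductase of the cell membrane induced in inflammation (chromosome 5, 7960472 to 7982213), was at 30.7, 32.9 and 35.2 CPM in KO1 and 51.1, 39.2 and 47.5 CPM in Ctrl. It had 0 counts in KO2, at least 499-fold lower, and here KO1 was close to Ctrl. Other genes with 0 counts in KO2 were Nipal2 (at least 495-fold), 3830403N18Rik (at least 1132-fold), Gxylt2 (at least 313-fold), Gm1966 (at least 626-fold), Gm4070 (at least 214-fold) and Pitx1 (at least 209-fold). Pitx1 is a homeobox transcription factor, and Gxylt2 adds xylose to the sugar chains of Notch. Ehf, an epithelial transcription factor of the ETS family, kept 1 count in KO2 against 24.2 CPM in KO1, which is 0.0462% of the KO1 level (95% counting interval 0.00117% to 0.258%). These intervals cover counting error only. Abca8b, a lipid transporter, kept 2 counts, 0.241% of KO1 (95% counting interval 0.0291% to 0.872%).

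The reverse pattern was rarer. Ube2ql1, a ubiquitin-conjugating enzyme (chromosome 13, 69702832 to 69739897), was at 49.6, 52.1 and 52.5 CPM in KO2, 26.9, 38.1 and 29.1 CPM in Ctrl and 0.0287, 0 and 0.0306 CPM in KO1. The 2 counts in KO1 are 0.0390% of the KO2 level (95% counting interval 0.00472% to 0.141%), so the silent line here was KO1. Cpm, which encodes carboxypeptidase M (chromosome 10, 117629500 to 117687352), was at 8.22, 11 and 10.1 CPM in KO2 and 0.992, 1.38 and 1.22 CPM in Ctrl and had 0 counts in KO1, at least 123-fold. Ogdhl, a relative of a mitochondrial dehydrogenase subunit, kept 1 count in KO1, 0.0783% of KO2 (95% counting interval 0.00198% to 0.437%), and Sall2, a zinc finger transcription factor, also kept 1, 0.118% (95% counting interval 0.00299% to 0.662%). C130074G19Rik kept 3 counts, 0.150% (95% counting interval 0.0309% to 0.439%).

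Morc1 was the 1 gene with a symbol among the 2 that were on in KO2 and off in both other groups. It encodes an ATPase that silences transposons in the male germline (chromosome 16, 48431237 to 48630905). It was at 101, 100.3 and 98.3 CPM in KO2, 0, 0.0310 and 0.0919 CPM in KO1 and 0 in all Ctrl libraries. The fitted log2 difference between the lines was 11.15 (edgeR adjusted p = 9.19e-10). It was 12.38 without KO1 replicate 3, which had the highest of the KO1 values. Both sizes rest on very few counts in KO1, so neither a fold nor an SE is given. Syt13, a synaptotagmin of vesicle traffic, differed in all 3 groups, with 66.0, 59.4 and 66.1 CPM in KO2, 1.23, 1.30 and 1.16 CPM in KO1 and 7.46 CPM in Ctrl (log2 difference 5.69; edgeR adjusted p = 5.75e-11). Unc93b1, which carries Toll-like receptors to endosomes, was higher in KO2 by 5.73 on the log2 scale, Adgre5, the adhesion receptor CD97, by 5.73, and Cpt1c, a brain form of carnitine palmitoyltransferase, by 6.27. In all, 26 named genes were called at 2-fold or more above Ctrl in KO2 and below Ctrl in KO1, and 155 below Ctrl in KO2 and above it in KO1.

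**Figure D2:**
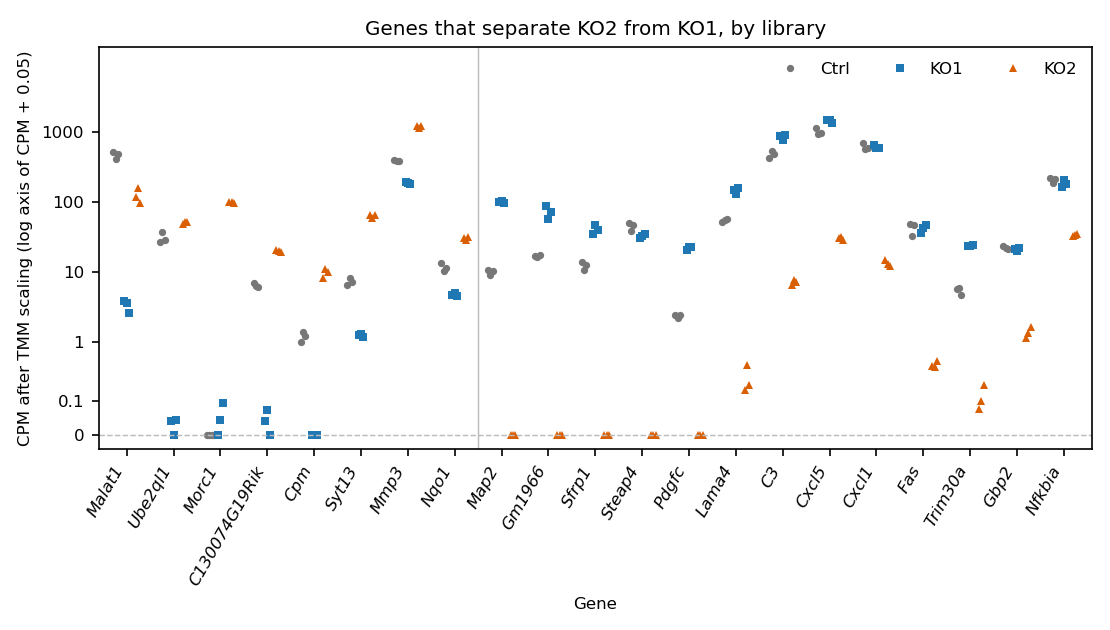
Level of 21 genes in each library, as CPM after TMM scaling on a log axis with 0.05 added, with 1 point per library (grey circles Ctrl, blue squares KO1, orange triangles KO2). Genes higher in KO2 stand left of the vertical line and genes lower in KO2 right of it, and no KO1 library overlaps a KO2 library in any of them. The dashed line marks 0, where all KO2 libraries lie for Map2, Gm1966, Sfrp1, Steap4 and Pdgfc.

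The stretch of 250 bases before the first listed start site was read for each tested gene that the RefSeq promoter table (GRCm38.p6) held, 10175 of 13682. That site need not be the outermost end of the gene, so a stretch can overlap the gene span, as for Map2 and Oas1a. The number of CG dinucleotides, the sites that DNA methylation can occupy, had a median of 16 over all 10175 promoters. It was 10 for genes called lower in KO2 at 2-fold or more and 12 for those called higher. Of the genes on in KO1 only, 23 had a promoter in the table, with a median of 4. Of those on in KO2 only, 5 had one, with a median of 19. The promoters of Map2 (chr1:66175079-66175328, plus strand) and Ube2ql1 (chr13:69739898-69740147, minus strand) are shown 5′ to 3′ as a gene all but silent in KO2 and one all but silent in KO1, with each CG in capitals, 34 and 24 in number.
Map2: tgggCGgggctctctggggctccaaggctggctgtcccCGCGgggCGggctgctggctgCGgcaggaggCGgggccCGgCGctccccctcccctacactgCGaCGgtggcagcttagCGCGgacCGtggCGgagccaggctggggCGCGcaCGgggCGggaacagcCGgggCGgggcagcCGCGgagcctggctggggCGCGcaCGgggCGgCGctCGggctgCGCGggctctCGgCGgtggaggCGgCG
Ube2ql1: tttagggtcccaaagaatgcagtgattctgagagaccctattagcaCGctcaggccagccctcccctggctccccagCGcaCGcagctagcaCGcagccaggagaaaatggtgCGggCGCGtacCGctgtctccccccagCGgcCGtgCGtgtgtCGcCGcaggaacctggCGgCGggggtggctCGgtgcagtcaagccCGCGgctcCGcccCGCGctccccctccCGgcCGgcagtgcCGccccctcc
Both carry more CG than the median promoter, unlike most genes that were on in KO1 only. No methylation was measured here, and the counts describe sequence alone.

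Chemokine genes were lower in KO2 almost throughout. Of 13 tested chemokine genes, 12 were lower in KO2 and none higher, with a median log2 difference of -5.48 (-3.87 with Cxcl11, which had 0 counts in KO2, set to its lower bound). Over all tested genes 29.5% were lower. Cxcl1, a ligand that draws neutrophils (chromosome 5, 90891245 to 90893121), was at 653, 591 and 591 CPM in KO1, 15.1, 13.1 and 12.5 CPM in KO2 and 698, 563 and 577 CPM in Ctrl. KO1 and Ctrl overlapped, and all KO2 libraries lay far below both, with a log2 difference of -5.49 ± 0.12 (SE; edgeR adjusted p = 6.17e-11). Its neighbour Cxcl5, with the same receptor, was at 1397 ± 81.8 CPM in KO1 and 30.4 ± 1.65 CPM in KO2 (SD, n = 3; log2 difference -5.52). Ccl20, which draws cells that carry CCR6, was at 16.6, 9.85 and 12.5 CPM in KO1, 0.197, 0.0678 and 0.102 CPM in KO2 and 22.1, 22.3 and 18.7 CPM in Ctrl (log2 difference -6.68; edgeR adjusted p = 2.22e-08). Ccl7 (-6.93) and Ccl2 (-5.48), both attractants of monocytes, and Cxcl10 (-6.03), an interferon-induced attractant of T cells, were lower as well. Cx3cl1, a membrane-bound chemokine, had a log2 difference of 0.27 and was not called (edgeR adjusted p = 0.169).

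The inhibitors and subunits of the pathway moved with these genes. Of 20 members, 17 were lower in KO2 and 1 higher, with a median of -1.25. Nfkbia, the inhibitor IkB-alpha and itself a target of NF-kB (chromosome 12, 55489409 to 55492647), was at 164, 206 and 182 CPM in KO1, 33.3, 34.0 and 35.2 CPM in KO2 and 221, 189.5 and 214 CPM in Ctrl. The lines did not overlap, and KO1 lay near Ctrl (log2 difference -2.43 ± 0.10, SE; edgeR adjusted p = 4.65e-09). The subunit genes were lower by 2.34 (Relb), 1.56 (Nfkb2), 1.29 (Rel), 0.76 (Nfkb1) and 0.52 (Rela) on the log2 scale. The inhibitors Tnfaip3 (-2.18), a deubiquitinase, and Nfkbie (-2.15) were lower too. Of the kinase complex, the scaffold gene Ikbkg was higher (0.64), and the catalytic subunits Ikbkb (-0.16; edgeR adjusted p = 0.0685) and Chuk (-0.10; edgeR adjusted p = 0.511) were not called.

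Acute-phase and complement genes followed. Of 17 tested, 16 were lower in KO2, all at 2-fold or more, and 1 was higher, with a median of -4.43 (-4.19 with the 4 members at 0 in KO2 set to their bounds). C3, the central complement protein (chromosome 17, 57203967 to 57228136), was at 866, 751 and 909 CPM in KO1, 6.65, 7.83 and 7.31 CPM in KO2 and 428, 537 and 478 CPM in Ctrl. KO1 stood above Ctrl and KO2 far below it (log2 difference -6.86 ± 0.13, SE; edgeR adjusted p = 3.97e-11). The serum amyloid gene Saa3 was at 18.5 ± 2.73 CPM in KO1 and 0.0558 ± 0.0190 CPM in KO2 (SD, n = 3; -8.27 on the log2 scale). Haptoglobin, Hp, was lower by 6.93 on the log2 scale, and KO2 replicate 2 was the KO2 library that held all of its counts. Without that library KO2 had 0 counts, so the fitted difference of -11.14 is not a measured size. The 1 higher member was S100a8 (1.63; edgeR adjusted p = 0.0274), a calcium-binding alarmin, and this call was lost without any 1 of KO1 replicates 1 and 3 and the 3 KO2 replicates (adjusted p from 0.0581 to 0.0816).

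Of 18 cytokines and growth factors of myeloid cells, KO2 had 14 lower and 1 higher, with a median of -2.26. Summed over the listed members, the level differed less, at 993 to 1040 CPM in KO1, 919 to 956 in KO2 and 964 to 984 in Ctrl. Csf3, the granulocyte growth factor G-CSF, was at 63.3, 74.1 and 69.4 CPM in KO1, 10.1, 10.5 and 11.2 CPM in KO2 and 125, 115 and 119.9 CPM in Ctrl. Here KO1 already lay below Ctrl, and KO2 lay lower still (log2 difference -2.70; edgeR adjusted p = 7.20e-10). Il23a, a subunit of interleukin 23 (-5.10), Il7 (-2.81) and Kitl, the stem cell factor (-2.26), were lower. Kitl was highest in KO1, at 113 CPM against 36.4 in Ctrl and 23.5 in KO2. Tslp, an epithelial cytokine, was the member higher in KO2 (1.15).

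The kappaB motif, the binding sequence of NF-kB, stands in 5.8% of all promoters of this length on either strand, in 5 of 7 chemokine promoters (71.4%) and in 5 of 16 of the NF-kB subunit and inhibitor genes (31.2%). It stands in 3 of 12 of the myeloid cytokine genes (25%) and in 1 of 12 of the acute-phase and complement genes (8.3%). Of genes called at 2-fold or more, 9.2% of those higher in KO2 and 6.9% of those lower held it. The search for it was added after the values were known. The promoters of Cxcl1 (chr5:90890995-90891244, plus strand) and Ccl20 (chr1:83116516-83116765, plus strand) are shown as examples that hold the motif, in capitals at -71 and -80. The difference between the lines was large in both, though that of Ccl7 was larger than either.
Cxcl1: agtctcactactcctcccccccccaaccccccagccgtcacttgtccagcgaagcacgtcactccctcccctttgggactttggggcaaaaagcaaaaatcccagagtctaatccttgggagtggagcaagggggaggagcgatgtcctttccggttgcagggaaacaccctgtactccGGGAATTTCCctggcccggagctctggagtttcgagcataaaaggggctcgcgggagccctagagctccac
Ccl20: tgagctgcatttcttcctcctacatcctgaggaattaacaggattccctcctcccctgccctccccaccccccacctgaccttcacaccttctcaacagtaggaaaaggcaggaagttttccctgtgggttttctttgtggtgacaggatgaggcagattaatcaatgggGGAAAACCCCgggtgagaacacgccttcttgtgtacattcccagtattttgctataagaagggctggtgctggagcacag
A match describes these letters only, and binding was not measured. Chemokine genes include known targets of NF-kB, so a high share of the motif is a description of the list and not a test.

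Interferon-induced genes separated the lines in the same direction. Of 15 tested interferon-induced GTPases, 14 were lower in KO2 and none higher, all 14 at 2-fold or more, with a median of -3.80. Gbp2, a guanylate-binding protein that attacks the vacuoles of pathogens (chromosome 3, 142620663 to 142638008), was at 21.5, 20.2 and 22.5 CPM in KO1, 1.11, 1.36 and 1.63 CPM in KO2 and 23.9, 22.3 and 21.8 CPM in Ctrl. KO1 and Ctrl lay together and KO2 below (log2 difference -3.97 ± 0.13, SE; edgeR adjusted p = 1.34e-09). Gbp4 (-4.73), Gbp6 (-4.31) and Gbp2b (-4.14) were lower as well. The Gbp genes are close copies, and how the authors' counting split reads among them is uncertain. Irgm1, an immunity-related GTPase, was the member not called (-0.05; edgeR adjusted p = 0.695).

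Of 50 antiviral genes, 36 were lower in KO2 and 7 higher, with a median of -1.06 (-0.85 with at least 1 CPM in 3 libraries). Summed over the listed members, the level differed less, at 1900 to 1990 CPM in KO1, 1710 to 1830 in KO2 and 1610 to 1630 in Ctrl. Trim30a, a ubiquitin ligase that restrains inflammation (chromosome 7, 104409025 to 104465193), was at 24.2, 23.4 and 24.8 CPM in KO1, 0.0655, 0.102 and 0.204 CPM in KO2 and 5.71, 5.91 and 4.83 CPM in Ctrl. The groups did not overlap, with KO1 above and KO2 below Ctrl (log2 difference -7.57; edgeR adjusted p = 4.38e-10). Trim30d has nearly the same sequence, so the share of each is uncertain. Oas1a, which makes the messenger that activates RNase L (chromosome 5, 120896256 to 120907544), was at 9.19, 8.05 and 6.22 CPM in KO1 and 0.197, 0.441 and 0.306 CPM in KO2, with its near copy Oas1g lower too (-4.62 and -6.06). Sp100, a nuclear body protein, was lower by 5.76, the dynamin-like Mx2 by 4.79 and Ifit3 by 4.10 on the log2 scale. The 7 higher members were Slfn2 (1.52), Slfn8 (0.85) and Slfn9 (0.79) of the Schlafen family, the membrane proteins Ifitm2 (0.51) and Ifitm3 (0.42), Epsti1 (1.00) and the cytidine deaminase gene Apobec3 (0.24).

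The upstream members were lower too. Of 22 interferon receptor, kinase and transcription factor genes, 18 were lower and 1 higher, with a median of -1.0. Stat3, which answers interleukin 6, was lower by 1.59 and Irf9, a DNA-binding interferon factor, by 1.44 on the log2 scale. The receptor chains Ifngr1 (-1.43), Ifngr2 (-1.25) and Ifnar2 (-1.25) were lower, and Jak2 was the 1 higher member (0.44). Of 20 nucleic acid sensors and adaptors, 14 were lower and 2 higher, with a median of -0.52. The RNA sensors Ifih1 (-3.65) and Ddx58 (-1.54) and the bacterial sensor Tlr2 (-2.62) were lower. The adaptor genes Mavs (0.62) and Tmem173 (0.36) were higher.

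The core of the interferon-stimulated response element, GAAA, any 2 bases and GAAA again on either strand, stands in 2.7% of all promoters of this length, in 8 of 9 of the GTPase promoters held by the table (88.9%) and in 18 of 40 of the antiviral genes (45.0%). The gamma-activated site TTCNNNGAA stands in 6.0% of all and in 4 of 9 of the GTPase promoters (44.4%), and in 4 of 40 of the antiviral genes (10%). The promoters of Gbp2 (chr3:142620413-142620662, plus strand) and Oas1a (chr5:120907526-120907775, minus strand) are shown for these groups, with the element in capitals, at -59 on the opposite strand in Gbp2 and at -20 and -14, overlapping, in Oas1a.
Gbp2: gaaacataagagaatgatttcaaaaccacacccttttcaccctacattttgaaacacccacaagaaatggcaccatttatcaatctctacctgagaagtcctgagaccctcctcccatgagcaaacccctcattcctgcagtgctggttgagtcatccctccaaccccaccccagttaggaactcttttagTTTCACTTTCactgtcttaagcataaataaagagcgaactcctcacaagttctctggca
Oas1a: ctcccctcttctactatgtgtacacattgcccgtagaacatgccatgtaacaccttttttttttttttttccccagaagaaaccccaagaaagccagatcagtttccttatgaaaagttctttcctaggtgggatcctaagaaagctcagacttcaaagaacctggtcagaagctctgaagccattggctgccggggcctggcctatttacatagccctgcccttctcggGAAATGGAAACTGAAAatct
The lists were chosen for their known regulation, so a high share of the element is a description of them and not a test.

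Of 27 genes of MHC class I presentation, 12 were lower and 2 higher, with a median of -0.26. The transporter gene Tap2 (-0.91), the immunoproteasome gene Psmb8 (-0.84) and the loading factor Tapbp (-0.83) were lower. B2m, the light chain of all class I molecules, was at 494, 579 and 592 CPM in KO1 and 594, 585 and 609.5 CPM in KO2 and was not called (0.10; edgeR adjusted p = 0.302). The sign of B2m turned with total count scaling (-0.0037). The 2 higher members, Erap1 (0.22) and Pdia3 (0.23), were not called with that scaling. Of 13 checkpoint and phagocytosis ligands, 5 were higher and 6 lower (median -0.03). Cd274, the checkpoint ligand PD-L1, was lower (2.09 CPM in KO1 and 0.716 in KO2; -1.54; edgeR adjusted p = 0.000123). Cd47, which restrains phagocytosis, was higher (251 and 450.0 CPM; 0.84), as was Cd24a (0.96).

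**Figure D3:**
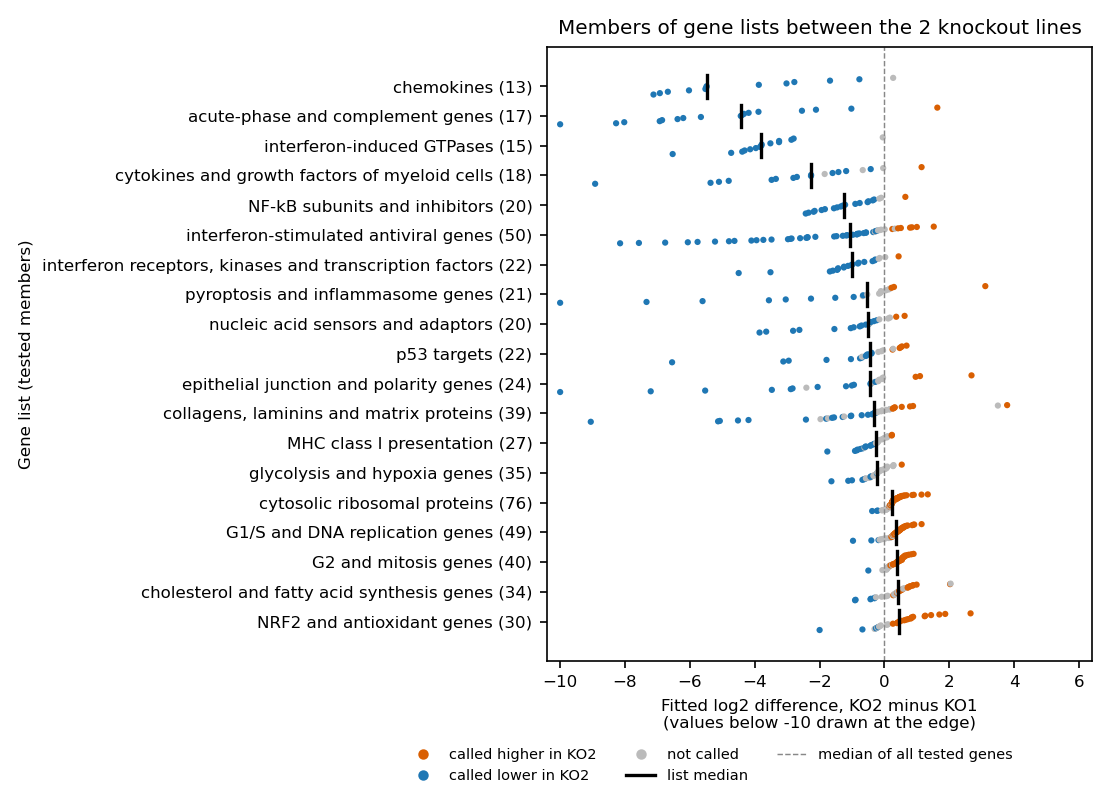
Fitted log2 difference between the lines (KO2 minus KO1, horizontal axis) of every tested member of 19 gene lists, with the number of members in brackets. Points are genes (orange called higher in KO2, blue called lower, grey not called), black bars are list medians and the dashed line is the median of all tested genes. Medians run from -5.48 for chemokines to 0.46 for NRF2 and antioxidant genes, and the lists below 0 have longer tails than those above it.

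Of 22 death receptor and apoptosis genes, 8 were lower and 3 higher, with a median of -0.07. That is 50% called, against 55.0% of all tested genes, so the count is near the background. The share was also near it for MHC class I presentation (51.9%), keratins (54.5%), pyroptosis (57.1%), mesenchymal genes (57.9%) and Wnt genes (58.6%). It was 47.4% for serpins, 42.4% for ATF4 and unfolded protein genes, 38.5% for imprinted genes and 28.6% for glycolysis and hypoxia genes. Fas, the death receptor engaged by T cells (chromosome 19, 34290647 to 34327775), was at 36.5, 42.2 and 48.0 CPM in KO1, 0.426, 0.407 and 0.510 CPM in KO2 and 49.2, 33.3 and 46.8 CPM in Ctrl. KO1 overlapped Ctrl, and KO2 lay below both (log2 difference -6.55; edgeR adjusted p = 2.01e-09). The TRAIL receptor Tnfrsf10b (-1.03) and Bid, which links death receptors to mitochondria (-1.64), were lower. For Bid it was KO1 that lay apart from Ctrl (21.7, 17.3 and 54.0 CPM in Ctrl, KO2 and KO1). The members higher in KO2 were Bax (0.47), Birc5 (0.39) and Bak1 (0.31).

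Of 21 pyroptosis and inflammasome genes, 9 were lower and 3 higher, with a median of -0.53. Mefv, which encodes the sensor pyrin, had 0 counts in KO2, at least 151-fold lower. Casp4, the caspase that senses bacterial lipopolysaccharide and is named Casp11 in older mouse work, was at 24.3 ± 2.84 CPM in KO1 and 2.94 ± 0.303 CPM in KO2 (SD, n = 3; -3.04). Naip2 was lower by 3.56, with close copies among which the split of reads is uncertain. Casp1, the caspase of the inflammasome, was at 42.6, 46.6 and 43.4 CPM in KO1, 28.8, 29.0 and 26.1 CPM in KO2 and 23.2, 21.6 and 23.7 CPM in Ctrl, lower in KO2 by 0.66 (edgeR adjusted p = 3.16e-05). Gsdmd, the pore former that it cuts, was at 43.3, 47.1 and 43.5 CPM in KO1 and 52.2, 54.9 and 48.6 CPM in KO2. It was called higher in KO2 by 0.22 (edgeR adjusted p = 0.0267), but not with total count scaling (adjusted p = 0.23), on FPKM, or without KO1 replicate 1 or 3 or KO2 replicate 1 or 2 (adjusted p from 0.0604 to 0.0979).

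Of 19 tested serpins, 8 were lower and 1 higher, with a median of -1.56 that was -0.14 with the 6 members at 0 in a line set to their bounds. Serpinb6b, an intracellular protease inhibitor (chromosome 13, 32956811 to 32979067), was at 1.46, 1.33 and 1.44 CPM in KO1 and kept 2 counts in KO2, 1.58% of KO1 (95% counting interval 0.190% to 5.82%). Both lines lay far below Ctrl (48.8 CPM), so the difference between them lies within a range that Ctrl did not enter. Serpinb6a was the higher member (0.47). Members of the Serpina1 and Serpina3 clusters are close copies of each other, and how reads were shared among them is uncertain.

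Of the epithelial genes called, most were lower in KO2, and keratins were mixed. Of 24 genes of epithelial junctions and polarity, 13 were lower and 3 higher (median -0.43). Examples are the desmosome gene Pkp2 (-3.47) and the cornified envelope gene Evpl (-2.83). Of 11 keratins, 3 were lower and 3 higher (median 0.24). Krt7 (chromosome 15, 101412403 to 101427806) was at 49.0, 53.7 and 51.4 CPM in KO1, 0.655, 0.848 and 0.816 CPM in KO2 and 49.7, 48.2 and 47.8 CPM in Ctrl, so that KO2 lay apart from the other groups (-6.05; edgeR adjusted p = 2.71e-11). Krt18, the keratin of simple epithelia, was at 333, 641 and 1153 CPM in Ctrl, KO1 and KO2, and its partner Krt8 at 373, 635 and 1055 CPM. Krt23 was found in KO2 (8.94 CPM) and was near 0 in KO1 (0.184 CPM; log2 difference 5.6).

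Of 19 mesenchymal genes and transition factors, 5 were higher and 6 lower (median -0.23). Vim, the intermediate filament of mesenchymal cells (0.67), and S100a4, a calcium-binding protein tied to motility (1.75), were higher. Fn1, fibronectin, was at 2891, 2922 and 3026 CPM in KO1, 1010.1, 1080.4 and 1135 CPM in KO2 and 1783, 2363 and 2031 CPM in Ctrl and was lower by 1.45 (edgeR adjusted p = 3.16e-07). S100a4 was at 265, 576 and 353 CPM in KO1 and 1273, 1423 and 1333 CPM in KO2, with a wide spread in KO1.

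Matrix genes fell on the same side as fibronectin in most calls. Of 39 collagen, laminin and matrix genes, 19 were lower and 8 higher (median -0.33). With total count scaling 4 were higher. Lama4, a laminin chain of basement membranes (chromosome 10, 38965515 to 39110188), was at 147, 131 and 156 CPM in KO1, 0.164, 0.441 and 0.204 CPM in KO2 and 51.9, 55.1 and 57.2 CPM in Ctrl. KO1 was above and KO2 far below Ctrl (-9.06; edgeR adjusted p = 4.63e-11). Decorin, Dcn (-5.13), and Col6a2 (-5.08, and -6.23 without KO2 replicate 2) were lower, and Col5a3 was higher (3.78) with 0.558 CPM in KO1 against 7.82 in Ctrl and 7.76 in KO2.

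Of 24 matrix proteases and inhibitors, 7 were higher and 10 lower (median -0.05), where 25.5% of all tested genes were higher and 29.5% lower. Mmp3, stromelysin 1 (chromosome 9, 7445822 to 7455975), was at 1207, 1122 and 1198 CPM in KO2, 192, 187 and 181 CPM in KO1 and 402, 381 and 382 CPM in Ctrl. It was higher in KO2 by 2.66 ± 0.06 (SE; edgeR adjusted p = 1.79e-10), with Ctrl between the lines. Plau, the urokinase gene (2.00), and Mmp10 (1.80) were higher as well. The protease genes Adamts1 (-7.77, and -9.56 without KO2 replicate 2) and Adamts7 (-3.06) and the heparanase gene Hpse (-2.40) were lower. Of 22 integrins and adhesion molecules, 7 were higher and 10 lower (median -0.19, and 6 lower without KO2 replicate 1). Itgb4 of hemidesmosomes (1.26) and Itgb2, a leukocyte integrin chain (1.20), were higher, and Itga7, a laminin receptor (-2.07), was lower.

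Among mammary lineage genes, the stem and basal list had 4 members higher and 8 lower of 20 (median -0.34, or -0.23 with 1 member at 0 set to its bound). Trp63, the master factor of basal cells, was lower (-6.29, and -8.27 without KO2 replicate 1), and Lgr6, a receptor of R-spondins, was higher (1.61). Of 8 luminal genes, 1 was higher and 5 lower (median -1.11). Gata3, a luminal transcription factor, was the higher one (86.8 and 195 CPM in KO1 and KO2; 1.16), while the EGF receptor ligand Areg was lower (-2.45). Of 29 Wnt ligands, receptors and antagonists, 7 were higher and 10 lower (median -0.17). The receptor Ror1 was lower (-8.68, and -9.93 without KO2 replicate 2), at 20 CPM in KO1, 0.938 in Ctrl and 0.0452 in KO2. The Ctrl mean thus lay between the lines, well below KO1 and above KO2. The ligand Wnt10a was lower (-4.01). Of 40 growth factor receptors and ligands, 11 were higher and 16 lower (median -0.02), where 25.5% of all tested genes were higher and 29.5% lower. The lower ones included Tgfb2 (-3.54) and Inhba (-2.35), both of the TGF-beta family, and 7 were higher with total count scaling.

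Of 33 silencing factors, KO2 had 17 higher and 7 lower (median 0.22, with 4 lower without KO2 replicate 1 or 3). Tet1, which oxidises methylated cytosine, was at 1.29, 1.46 and 1.65 CPM in KO1, 5.73, 6.95 and 5.58 CPM in KO2 and 4.48, 3.54 and 4.25 CPM in Ctrl (2.05; edgeR adjusted p = 1.70e-06). KO1 lay below Ctrl, and KO2 lay nearer to it. The methyltransferase gene Dnmt3a was higher (0.79), and Morc4 (-1.34) and Morc3 (-1.06), relatives of Morc1, were lower. Of 46 germline and cancer-testis genes written, 33 were listed and 7 passed the filter, which a gene expressed in a single line can pass through that line alone. Of these 7, 2 were higher, Morc1 and Piwil4 (0.91), and 3 lower. Of 13 imprinted genes, 4 were higher and 1, Dcn, lower (median 0.16).

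Cell cycle genes were higher in KO2 by small amounts. Of 49 G1/S and replication genes, 33 were higher and 3 lower (median 0.36), and of 40 G2 and mitosis genes, 27 were higher and 1 lower (median 0.39). With total count scaling the counts were 28 and 5, and 21 and 2, and both medians stayed above 0. Rrm2, the ribonucleotide reductase subunit of S phase (1.15), and the replication factor Gins1 (0.89) were examples of the first. Kif20a (0.90) and Plk1 (0.83), a motor and a kinase of mitosis, were examples of the second. Ccnb1, cyclin B1, was at 136, 151 and 132 CPM in KO1, 231, 232 and 240.4 CPM in KO2 and 169.5, 149.8 and 153 CPM in Ctrl (0.75; edgeR adjusted p = 8.26e-06), so that KO2 was above both other groups. Rb1, which holds cells in G1, was lower (-0.97). Of 76 cytosolic ribosomal protein genes, 48 were higher and 3 lower (median 0.23). With total count scaling 25 were higher and 3 lower, and on log2(FPKM + 1) with limma 26 and 4. Rpl24 (1.34) and Rpl35a (1.14) passed 2-fold. Such genes have many processed copies in the genome, which makes their counts uncertain.

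Of 30 NRF2 and antioxidant genes, 19 were higher and 4 lower (median 0.46). Nqo1, a quinone reductase and classic NRF2 target (chromosome 8, 107388225 to 107403205), was at 31.2, 28.6 and 31.6 CPM in KO2, 4.77, 5.14 and 4.59 CPM in KO1 and 13.6, 10.7 and 11.5 CPM in Ctrl. It was higher in KO2 by 2.66 ± 0.11 (SE; edgeR adjusted p = 9.16e-09), and the lines lay on either side of Ctrl. Gclc, which starts glutathione synthesis (1.87), and the superoxide dismutase gene Sod1 (1.69) were higher. Sod2, the mitochondrial dismutase and an NF-kB target, was lower (133 and 33.3 CPM in KO1 and KO2; -2.0). The count of lower members was 2 without KO1 replicate 2, KO1 replicate 3 or KO2 replicate 2.

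Of 34 cholesterol and fatty acid synthesis genes, 15 were higher and 6 lower (median 0.41). Without KO1 replicate 3 or KO2 replicate 3, 9 were higher. Insig1, the sterol sensor of the endoplasmic reticulum (2.02, and 2.61 without KO1 replicate 2), and fatty acid synthase, Fasn (0.99), were higher, and the sterol enzymes Lss (-0.91) and Sqle (-0.89) were lower. Of 35 glycolysis and hypoxia genes, 1 was higher and 9 lower (median -0.22), and 4 were higher without KO1 replicate 2. Pfkfb3, an activator of glycolysis (-1.63), and Hif1a, the oxygen-regulated transcription factor (-0.68), were lower. The list of ATF4 targets and unfolded protein genes had 4 members higher and 10 lower of 33 (median -0.06), with Atf3, a stress-induced factor, at 60.8, 23.6 and 43.8 CPM in KO1 and 3.37, 2.44 and 2.21 CPM in KO2 (-3.99). Of 22 p53 targets, 5 were higher and 12 lower (median -0.46), with Plk2 (-2.95), Btg2 (-3.12) and Gadd45a (-1.79) lower beside Fas. Targets of YAP and TEAD were higher in 4 and lower in 9 of 19 cases (median -0.17), with the matricellular genes Ctgf (-2.77) and Cyr61 (-1.21) lower.

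The summed levels of markers of other cell types differed between the lists and, for most, between the lines. The summed level of the fibroblast list was 160.0 to 168 CPM in KO2 and 276 to 300.0 in KO1, of which Pdgfra made most (257 and 141 CPM in KO1 and KO2), and 2 of 4 tested members were lower. For macrophages and neutrophils the sum was 43.1 to 47.4 CPM in KO2 and 49.7 to 67.2 in KO1 (of 5 tested, 1 higher and 2 lower), with Adgre1 at 0.0300 CPM or less. For endothelium it was 76.5 to 85.6 CPM in KO2 and 50.8 to 58.6 in KO1 (of 3, 1 higher, Eng, 0.59). For lymphocytes it was 1.70 to 2.39 CPM in KO2 and 3.81 to 5.20 in KO1 (Lck lower, -1.22), and for adipocytes and muscle 0.476 to 1.02 and 3.33 to 4.56 CPM (4 of 4 lower, and 2 without KO1 replicate 3). Their part in the differences between the lines was not tested.

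Neighbouring genes often differed together. Blocks of 50 neighbouring tested genes, moved in steps of 25, numbered 477, and 72 of them (15.1%) had a median log2 difference at least 0.3 from 0. On chromosome 4 the median over 814 tested genes was -0.33, with 445 lower in KO2 (54.7%) and 61 higher (7.5%). KO2 lay away from Ctrl there, with medians of -0.329 for KO2 minus Ctrl and 0.036 for KO1 minus Ctrl. On chromosome 12 the median was 0.241 over 446 genes, with 214 higher (48.0%). KO1 lay away from Ctrl there, with medians of -0.375 for KO1 minus Ctrl and -0.102 for KO2 minus Ctrl. On chromosome 2 the median was 0.188 over 1039 genes, with 440 higher (42.3%). The lowest block lay on chromosome 4 between Epha2 and Clcn6, with a median of -0.796, and the highest on chromosome 15 between Rac2 and Rps19bp1, with 1.04. In the block on distal chromosome 12 between Papola and Cep170b, 41 of 50 genes were higher in KO2 and 3 lower (median 0.777).

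**Figure D4:**
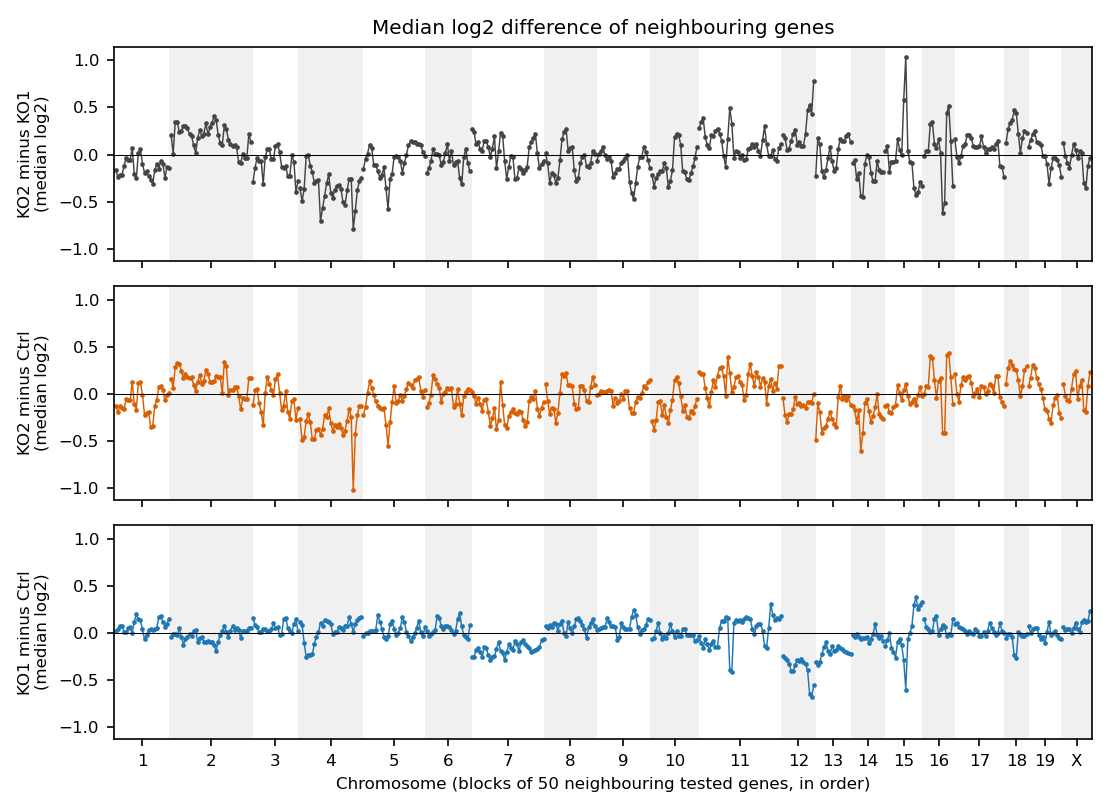
Median log2 difference in blocks of 50 neighbouring tested genes along the chromosomes, for KO2 minus KO1 (top), KO2 minus Ctrl (middle) and KO1 minus Ctrl (bottom), with chromosomes shaded in turn. Each point is a block, and the middle and bottom rows share the Ctrl libraries. Most of chromosome 4 lies below 0 in the top and middle rows, chromosome 12 lies below 0 in the bottom row, and chromosomes 15 and 16 hold sharp steps.

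Some runs of neighbours were then picked by eye from the blocks, after the values were seen, and are described without a test. On chromosome 15, from Mfng to Pick1 (15, 78755882 to 79249466, GRCm38), all 19 tested genes were higher in KO2, by a median of 1.69, where 25.5% of all tested genes were higher. KO1 minus Ctrl had a median of -1.47 in this stretch of 494 kb, and KO2 minus Ctrl a median of 0.26. Against Ctrl, 17 of the genes were called lower in KO1, while in KO2 10 were called higher and 1 lower. The 20 flanking genes had a median of 0.65 between the lines. Lgals1, the lectin galectin 1 (chromosome 15, 78926725 to 78930465), was at 1171, 1426 and 1324 CPM in KO1, 4918, 4613 and 5022 CPM in KO2 and 3175, 3269.8 and 2988 CPM in Ctrl. Eif3l, a subunit of a translation initiation factor, was at 160.4, 186 and 173 CPM in KO1, 712, 658 and 757 CPM in KO2 and 650.3, 640.2 and 606 CPM in Ctrl. In both, KO1 lay at well under the Ctrl level and KO2 somewhat above it, though for Eif3l KO2 was not called against Ctrl (edgeR adjusted p = 0.0848). Genes of unrelated function shared the pattern, among them the linker histone gene H1f0 (1.24), the Notch glycosyltransferase gene Mfng (3.43) and Gcat, a threonine-degrading enzyme (2.37). A second run lay just beyond, from Kdelr3 to Tomm22 (15, 79516408 to 79672862), with 5 of 5 tested genes higher by a median of 1.53. It holds Ddx17, an RNA helicase, at 517, 560.4 and 476 CPM in KO1, 1791, 2168 and 1667 CPM in KO2 and 1129, 1015 and 1209 CPM in Ctrl.

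On chromosome 16 the run from Eaf2 to Plcxd2 (16, 36792884 to 46010413) held 41 tested genes, of which 33 were lower in KO2 and none higher, with a median of -0.75. Here KO2 lay away from Ctrl, with a median of -0.61 for KO2 minus Ctrl and 0.04 for KO1 minus Ctrl, and the 20 flanking genes had a median of 0.26 between the lines. Gsk3b, a kinase of Wnt and insulin signalling, was at 143, 121 and 137 CPM in KO1, 88.0, 93.8 and 95.9 CPM in KO2 and 117, 130.2 and 131 CPM in Ctrl (-0.53). The difference was small and the lines did not overlap. Boc, a coreceptor of Hedgehog (-3.79), and B4galt4, a galactosyltransferase (-3.61), were lower by more. Morc1 lies beyond the end of this run, between Dppa2 and Myh15. Dppa4 and Dppa2, germline and early embryo genes before it, had 0 counts in KO2 against 0.279 and 0.319 CPM in KO1, and Myh15 after it was at 0.122 CPM in KO2 and 0 in KO1. Myh15 was itself called higher in KO2 than in KO1 (edgeR adjusted p = 0.0038), although below Ctrl in both (0.660 CPM in Ctrl). All 3 neighbours were under 1 CPM in every library and were named after their values were seen. In the block of 50 genes that spans Morc1, from Slc35a5 to Cggbp1, 27 were higher in KO2 and 11 lower, with a median of 0.437.

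On chromosome 4 the run from Epha2 to Pik3cd (4, 141301221 to 149702566) held 75 tested genes, of which 45 were lower in KO2 and 6 higher, with a median of -0.53. Its 20 flanking genes had a median of -0.58, so this run did not stand out from its surroundings by that measure. The cause of these runs was not tested.

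**Figure D5:**
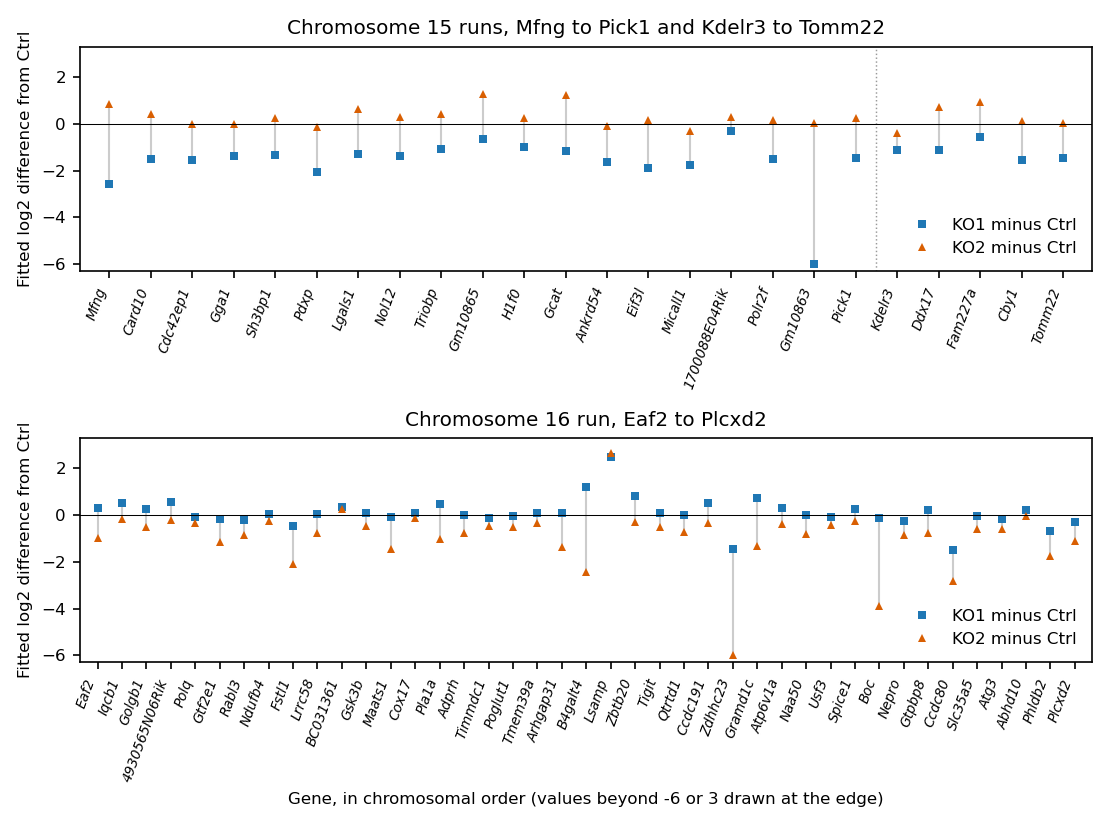
Fitted log2 difference from Ctrl of each tested gene in the runs on chromosome 15 (top) and chromosome 16 (bottom), in chromosomal order, with blue squares for KO1 and orange triangles for KO2 and a grey line between them. Both lines share the Ctrl libraries. On chromosome 15 KO1 lies below Ctrl and KO2 near it or above it, and on chromosome 16 KO2 lies mostly below and KO1 mostly near.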

How the data were processed

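RNA was sequenced in 9 libraries, and the deposited tables give 2 values per gene and library. Expected counts, estimated by the authors, carry no normalisation, and the authors' FPKM is scaled to gene length and library size; per the submitters' processing notes HISAT, RSEM, mm10 and GRCm38 were used, with versions not given in the sources used here. Genes with an FPKM under 0.01 were not in the deposited tables and were taken as 0. Groups came from the titles. Rounded counts went into edgeR 4.0.16 under R 4.3.3 (low genes removed by filterByExpr, TMM factors from 0.95 to 1.036, robust quasi-likelihood fit, Benjamini-Hochberg adjustment over 13682 genes), with all 9 libraries in the fit, 6 residual degrees of freedom and a biological coefficient of variation of 11.1%. Each SE is the size of the log2 difference over the square root of F and is approximate. After the filter the fitted libraries had totals of 30646394 to 35397735 counts. Positions came from a RefSeq table of GRCm38.p6, found for 17678 of 17719 numeric identifiers, and of 1353 unnamed models 930 were tested and none is named.

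The members and the 42 gene lists were chosen with earlier results of these data known, so lists are described and not tested. Genes named are Malat1, Neat1, Serpinb6b, Gsdmd, Casp1, Cd274 and B2m, the 10 largest differences per direction with at least 5 CPM in each library of the higher line, up to 4 called members per list with a mean of 5 CPM or more, up to 6 genes per class of on and off genes, and up to 5 per direction on opposite sides of Ctrl. Other genes, such as the further members of lists, those of the runs, the named promoters and the genes beside Morc1, were chosen after their values were seen. Alternatives covered scaling, filter, tool (DESeq2 1.42.0, limma 3.58.1), FPKM with a pseudocount of 1 or 0.1, the samples in the fit, a replicate block, each library left out and the thresholds. The steps were tested on simulated data. Some genes are not reported here.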

Additional observations from a re-analysis of the deposited data

Results flagged for a closer look

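In 10 genes the knockout lines lay on opposite sides of Ctrl, each called by edgeR at 2-fold or more against it. They are the 5 per direction with the largest fitted differences between the lines, of 26 such genes higher in KO2 and 155 lower. With 155 in 1 direction, genes left out of the 5, such as Lama4 (-9.06), can differ by more than some that are given. The difference itself was tested between KO2 and KO1. Above Ctrl in KO2 and below it in KO1 were Cpm (at least 123-fold between the lines), Sall2 (KO1 at 0.118% of KO2, 95% counting interval 0.00299% to 0.662%), C130074G19Rik (0.150%), Pgbd1 (0.487%, 95% counting interval 0.0588% to 1.77%) and Cpt1c (log2 difference 6.27; edgeR adjusted p = 2.89e-08). Pgbd1, a gene derived from a transposon, was at 4.62, 3.93 and 3.77 CPM in KO2, 0.0287, 0.0310 and 0 CPM in KO1 and 1.35, 1.38 and 1.94 CPM in Ctrl. Below Ctrl in KO2, with 0 counts there, and above it in KO1 were Map2 (at least 1059-fold), Gm1966 (at least 626-fold), Sfrp1 (at least 515-fold), Pdgfc (at least 316-fold) and Gm4070 (at least 214-fold). Gm1966 and Gm4070 lie within 1 stretch of chromosome 7 (Gm4070 from 105895118, Gm1966 to 106644646). Both are predicted genes, and whether near copies share their reads was not tested.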

How the results depend on the processing

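Under 21 alternatives, 170 named genes gave 3567 values, of which 3 turned sign (all B2m, not called in any of them), 29 lost their call (14 of them with a library left out) and 1, Krt19, gained one. B2m was at -0.0037 with total count scaling and at -0.00041 on FPKM with either pseudocount. Of 882 list totals, 16 moved by over 1.5 times. With total count scaling, called members numbered 3 for imprinted genes and 28 for ribosomal proteins (5 and 51 as reported), and on FPKM they numbered 2 and 30 with either pseudocount. Germline genes had 8 calls without the filter (5 as reported). Endothelial markers had 2 on FPKM with either pseudocount, and adipocyte and muscle markers 2 on FPKM + 1 and with only KO1 and KO2 in the fit (1 and 4 as reported). With each library left out, these ran from 1 to 2 and from 2 to 4. At an adjusted p under 0.01, integrins had 10, glycolysis 6 and adipocyte and muscle markers 2. On FPKM + 1, 1037 genes passed 2-fold, 236 higher and 801 lower, since the pseudocount shrinks low genes. With each library left out, 6451 to 7964 genes were called. Genes on in KO1 numbered 101 with off set at 0.5 CPM and 124 with on set at 1 CPM, and those on in KO2 15 and 16. With blocks of 25 genes, 20.7% lay at least 0.3 from 0 (15.1% as reported). The runs of neighbouring genes, the kappaB motif and list medians with genes at their bound were added after seeing the data. For the other shifts the cause was not tested.

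Libraries with the same replicate number in KO1 and KO2 had correlations of 0.03 to 0.05 in their deviations, so they were not treated as paired. Between Ctrl and KO1 the deviations were less independent. Same numbers gave -0.34 to 0.03 there, and different numbers -0.17 to 0.34 (highest for Ctrl replicate 2 with KO1 replicate 1). The cause was not tested. With a replicate block 6829 genes were called, 2131 at 2-fold or more. Depth limits low genes, and named genes with 0 to 3 counts in a line have a bound or an interval in place of a fold. Fitted values given with a library left out carry neither, and their size is uncertain for genes near 0 in a line.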
